A study of Homo sapiens with 32 samples.

Results

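CAV1 and CAV2, the genes of caveolin-1 and caveolin-2, were followed through 32 RNA sequencing libraries of 4 human endometrial cancer cell lines, as 2 of the 35238 genes counted. CAV1 was selected on its CPM values in Ishikawa cells, where it was lower with paclitaxel than with vehicle, and CAV2 because it is the neighbouring caveolin gene, so the paclitaxel values of both genes in Ishikawa are given as a description with no test. Ishikawa cells are labelled CTNNB1-wildtype (CTNNB1 is the gene of beta-catenin), whereas Ishikawa-S33Y, SNGM and HEC265 are labelled CTNNB1-mutated. Each line was treated for 24 h with 0.1% DMSO as vehicle, with paclitaxel, with SM08502 or with both drugs, and each of the 16 groups of line and treatment had 2 libraries. Paclitaxel, a taxane, holds microtubules in the assembled state, and SM08502 is an inhibitor of the CDC-like kinases, which phosphorylate splicing factors of the SR family. Both drugs were given at concentrations that inhibited viability of the line in question by 50%. Ishikawa received 11 nM paclitaxel and 80 nM SM08502, Ishikawa-S33Y received 6 nM and 85 nM, SNGM received 11.7 nM and 350.7 nM, and HEC265 received 5.6 nM and 149 nM. Libraries were made from 350 ng of RNA in Ishikawa and from 500 ng in the other lines, so neither dose nor input can be told apart from the line.

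Caveolins are small hairpin proteins of the plasma membrane that build the coat of caveolae, the flask-shaped pits found in many cells. Caveolin-1 is needed for caveolae outside striated muscle, and caveolin-2 joins it in hetero-oligomers and depends on it to leave the Golgi apparatus. The cavin proteins assemble on the caveolin coat from the cytosol, and EHD and pacsin proteins shape its neck. Caveolae buffer membrane tension, take part in endocytosis and lipid handling, and hold receptors and signalling enzymes. Caveolin-1 has been described in epithelial tumours both as restraining growth and as promoting survival and spread.

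In the RefSeq annotation of GRCh38.p14 both genes lie on the plus strand of chromosome 7, CAV2 at chr7:116499738-116508541 and CAV1 at chr7:116525009-116561185, with 16467 bases between them. No other listed gene overlaps either of them, and the noncoding gene CAV2-DT ends 221 bases before the start of CAV2. The 250 bases upstream of each gene's start are shown because the genes are neighbours whose responses to SM08502 are compared here, with GC boxes (GGGCGG on either strand, a motif bound by SP-family factors) in capitals. The CAV2 window is chr7:116499488-116499737 and the CAV1 window is chr7:116524759-116525008, both read 5′ to 3′ on the plus strand.
CAV2: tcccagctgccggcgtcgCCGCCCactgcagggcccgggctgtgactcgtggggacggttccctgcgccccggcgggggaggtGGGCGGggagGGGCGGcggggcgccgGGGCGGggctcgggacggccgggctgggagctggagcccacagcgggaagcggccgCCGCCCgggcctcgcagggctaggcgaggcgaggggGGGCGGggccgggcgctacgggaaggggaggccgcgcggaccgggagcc
CAV1: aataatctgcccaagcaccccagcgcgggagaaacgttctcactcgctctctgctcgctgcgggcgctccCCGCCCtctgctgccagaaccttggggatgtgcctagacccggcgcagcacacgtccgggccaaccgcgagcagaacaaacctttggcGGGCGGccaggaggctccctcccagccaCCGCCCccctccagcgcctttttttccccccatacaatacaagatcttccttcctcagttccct
The CAV2 window held 6 GC boxes, 4 on the plus and 2 on the minus strand, and 83.2% G or C. The CAV1 window held 3 GC boxes, 1 on the plus and 2 on the minus strand, and 63.6% G or C. Of 35116 windows of the same length in the RefSeq table, 42.6% held at least 1 GC box, and the median share of G or C was 58%. At least as many GC boxes as in the CAV2 window were found in 2.22% of the windows. At least as many as in the CAV1 window were found in 13.9%. A share of G or C above that of CAV2 was found in 0.888% of the windows, and one above that of CAV1 in 35.6%. The TEAD motif GGAATG was on neither strand of either window and was present in 11.9% of all windows. The same held for the TCF/LEF motif CTTTGAT, present in 2.26% of windows. The TATA box, searched as TATAAA, was also missing from both and present in 10.7%. The table lists 3 starts for CAV1 and 2 for CAV2, of which only the outermost is shown.

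The deposited values were log10(CPM + 1), where CPM is reads per 1000000 counted, and whole reads could be recovered from them. Depth was 13.03 to 34.1 M reads (M, 1000000) in 30 libraries, whereas 2 combination libraries were shallow, replicate 2 of SNGM at 1.61 M and replicate 2 of Ishikawa-S33Y at 2.99 M. Of 10 epithelial and endometrial markers, 10 were above 1 CPM in Ishikawa, Ishikawa-S33Y and SNGM and 9 in HEC265, where ESR1 was not. Cell types known for many caveolae left little marker RNA: the summed level was 1.31 to 16.2 CPM over the 4 lines for 7 endothelial markers, 0.236 to 2.08 CPM for 4 adipocyte markers and 10.7 to 69.9 CPM for 4 smooth muscle markers. The sum of 7 fibroblast markers was 715 to 1167 CPM in Ishikawa-S33Y, nearly all of it COL1A1 (707 to 1158 CPM), against 31.9 to 196 CPM in Ishikawa, 5.77 to 11.2 CPM in SNGM and 4.37 to 8.68 CPM in HEC265. A score of transcript length (52 genes with long transcripts against 58 ribosomal protein genes, as a difference of mean log2 values) was -3.41 to -1.80 in Ishikawa and -1.99 to -0.27 in the other lines. Within Ishikawa it differed between the 2 libraries with paclitaxel (-1.80 and -3.41) and between the 2 with SM08502 (-2.52 and -3.35).

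Both caveolins were detected in all 4 lines, and the lines spanned a far wider range than any drug response. On vehicle, CAV1 stood at 143 and 124 CPM in the 2 Ishikawa libraries and at 142 and 142 CPM in Ishikawa-S33Y. CAV1 was lowest in SNGM, at 86.9 and 74.6 CPM, and highest in HEC265, at 663 and 661 CPM. CAV2 on vehicle stood at 90.3 and 91.4 CPM in Ishikawa, 82.0 and 85.8 CPM in Ishikawa-S33Y, 2.75 and 3.69 CPM in SNGM, and 449 and 445 CPM in HEC265. HEC265 was thus the highest and SNGM the lowest line for both genes, with both CAV2 values of SNGM under 4 CPM. In bulk RNA, fewer expressing cells and less RNA per cell cannot be told apart. CPM is not scaled for transcript length, so the levels of the 2 genes are not compared with each other.

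**Figure D1:**
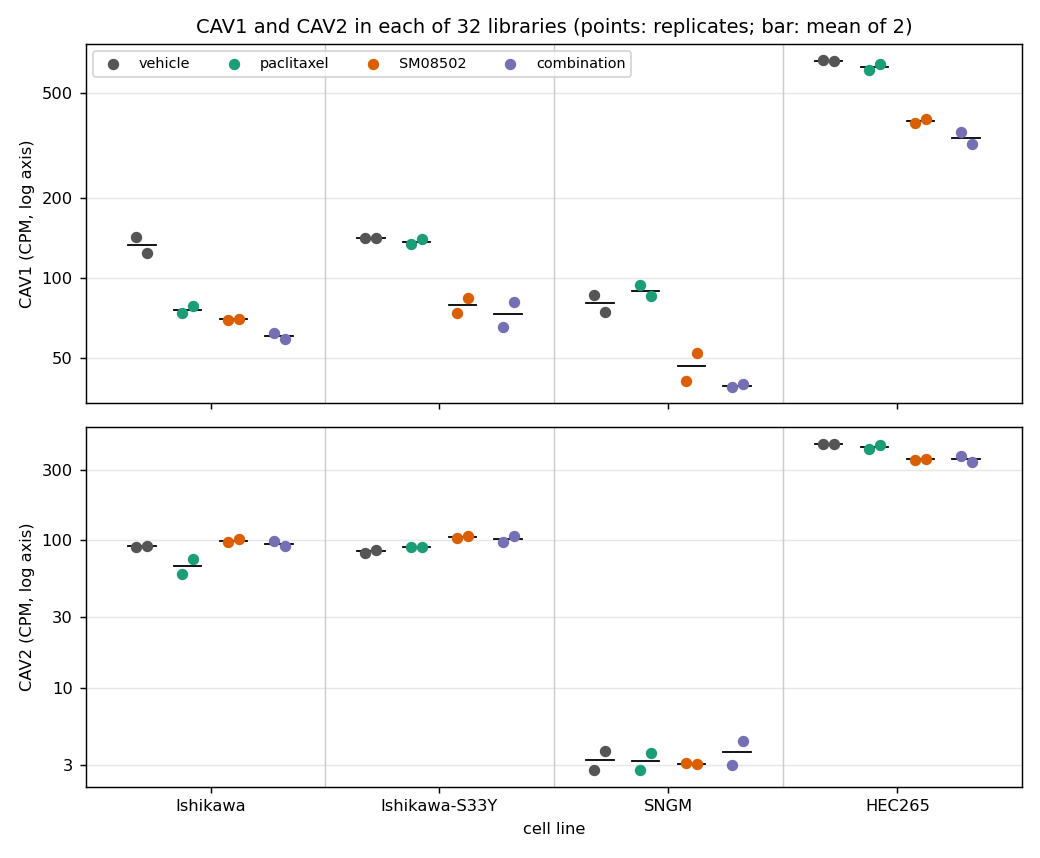
Level of CAV1 (top) and CAV2 (bottom) in CPM (log axis) in every library, by cell line and treatment, with points for the 2 replicates and a bar for their mean. CAV1 with SM08502 or the combination sits below vehicle in each line, HEC265 is the highest line for both genes, and CAV2 in SNGM stays between 2.75 and 4.36 CPM.

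The lines were compared on log2(CPM + 1) with limma, and calls required an adjusted p below 0.05 across the 17011 genes fitted. On vehicle, HEC265 exceeded Ishikawa-S33Y by a log2 difference of 2.21 in CAV1 (SE 0.12, adjusted p = 2.64e-13) and 2.40 in CAV2 (SE 0.13, adjusted p = 5.50e-13), with 58% of all genes called in this comparison. Ishikawa-S33Y exceeded SNGM by 0.81 in CAV1 (adjusted p = 3.16e-06) and by 4.34 in CAV2 (adjusted p = 2.09e-17), with 60.8% of genes called. Between HEC265 and SNGM the log2 difference was 3.02 in CAV1 (adjusted p = 1.43e-15) and 6.74 in CAV2 (adjusted p = 1.43e-20), with 54.9% of genes called, and only 13 genes were further above SNGM in HEC265 than CAV2. The vehicle libraries of Ishikawa entered the choice of CAV1, so Ishikawa was compared on SM08502. Ishikawa-S33Y minus Ishikawa on SM08502 was 0.17 in CAV1 (95% interval -0.07 to 0.41, adjusted p = 0.222) and 0.08 in CAV2 (-0.19 to 0.35, adjusted p = 0.636), neither called where 52.7% of genes were. HEC265 exceeded Ishikawa on SM08502 by 2.47 in CAV1 and 1.82 in CAV2 (adjusted p = 4.48e-14 and 7.71e-11), with 65.1% of genes called. SNGM stood below Ishikawa on SM08502 by a log2 difference of -0.59 in CAV1 (adjusted p = 1.36e-04) and -4.63 in CAV2 (adjusted p = 7.08e-18), with 66.5% of genes called. With the length score as a covariate the CAV1 difference between SNGM and Ishikawa was -0.43 and no longer called (adjusted p = 0.0784). Over all 16 groups, neighbours in the order of CAV1 that overlapped between replicates were Ishikawa-S33Y with paclitaxel and Ishikawa with vehicle, and the stretch from SNGM with paclitaxel (89.7 CPM) down to Ishikawa with SM08502 (69.98 CPM). The 4 HEC265 groups headed the order for both genes, and the 4 SNGM groups closed it for CAV2, all of them overlapping.

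The effect of paclitaxel was read against vehicle within each line. In Ishikawa, CAV1 stood at 74.1 and 78.3 CPM with paclitaxel, against 143 and 124 CPM with vehicle. Both paclitaxel libraries were below both vehicle libraries, and the fitted log2 difference was -0.80 (SE 0.12), a level of 57.1% of vehicle. CAV2 stood at 58.7 and 74.3 CPM with paclitaxel, against 90.3 and 91.4 CPM, a log2 difference of -0.45 (SE 0.13). Ranked from the lowest of 17011 differences in Ishikawa, CAV1 was number 20 and CAV2 number 233, and 0.0118% of genes were called in this contrast. The CAV2 value depended on the library: it was -0.62 without replicate 2 of paclitaxel and -0.29 without replicate 1, whereas CAV1 ranged from -0.90 to -0.70 without each replicate in turn. With the length score as a covariate the differences were -0.78 in CAV1 and -0.43 in CAV2.

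In the 3 other lines neither caveolin changed detectably with paclitaxel. CAV1 with paclitaxel stood at 134 and 141 CPM in Ishikawa-S33Y, 94.0 and 85.4 CPM in SNGM, and 609.5 and 645 CPM in HEC265. Both paclitaxel libraries were below both vehicle libraries in Ishikawa-S33Y and HEC265, by little, and the ranges overlapped in SNGM. The log2 differences in CAV1 were -0.04 for Ishikawa-S33Y, 0.15 for SNGM and -0.08 for HEC265 (adjusted p = 1 in each), and those in CAV2 were 0.10, -0.01 and -0.07 (adjusted p = 1 in each). None of these 6 tests had an unadjusted p under 0.05, and limma voom on the recovered reads called none either. The background was nearly as empty, with 0%, 0.0176% and 0.00588% of genes called. Averaged over the 3 lines, the difference was 0.01 in CAV1 (95% interval -0.13 to 0.15) and 0.01 in CAV2 (-0.15 to 0.16). Doses ranged from 5.6 to 11.7 nM, Ishikawa and SNGM having received 11 and 11.7 nM. Whether Ishikawa differs from the other lines was not tested, since its contrast chose CAV1.

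SM08502 lowered CAV1 in each of the 3 lines where it was tested, to between 55.8% and 59.1% of vehicle, and CAV2 was not called in any of the 4 lines, although in Ishikawa-S33Y and HEC265 that depended on the fit. CAV1 with SM08502 stood at 74.2 and 84.1 CPM in Ishikawa-S33Y, against 142 and 142 CPM with vehicle, a log2 difference of -0.84 (SE 0.12, adjusted p = 2.21e-05). In SNGM it stood at 41.0 and 52.3 CPM, against 86.9 and 74.6 CPM, a difference of -0.79 (SE 0.12, adjusted p = 1.84e-04). In HEC265 it stood at 386 and 397 CPM, against 663 and 661 CPM, a difference of -0.76 (SE 0.12, adjusted p = 1.35e-04). No SM08502 library overlapped a vehicle library of its line. Genes called lower made up 10.6%, 4.06% and 5.39% of all genes in these contrasts. The mean over the 3 lines was -0.79 (SE 0.07, adjusted p = 1.91e-08), number 179 from the lowest of 17011 genes, with 11.9% of genes called lower. In Ishikawa, CAV1 with SM08502 stood at 69.8 and 70.1 CPM, a difference of -0.92 that shares its vehicle libraries with the contrast used to choose the gene and is described only. The call in SNGM was lost when SNGM libraries alone set the spread (adjusted p = 0.0760). In Ishikawa-S33Y the median gene rose by 0.11, and after re-centring each library on its median CAV1 stood at -0.89.

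CAV2 with SM08502 stood at 96.9 and 101 CPM in Ishikawa, 103 and 106 CPM in Ishikawa-S33Y, 3.09 and 3.03 CPM in SNGM, and 349 and 356 CPM in HEC265. These levels were above vehicle in both Ishikawa lines, within the vehicle range in SNGM and below vehicle in HEC265. The log2 differences were 0.12 in Ishikawa (95% interval -0.15 to 0.40, adjusted p = 0.577) and 0.32 in Ishikawa-S33Y (0.05 to 0.59, adjusted p = 0.0746). They were -0.05 in SNGM (-0.32 to 0.23, adjusted p = 0.927) and -0.34 in HEC265 (-0.62 to -0.07, adjusted p = 0.0893). With limma, 2 of the 4 CAV2 tests had an unadjusted p under 0.05, and limma voom on the recovered reads called the same 2 tests, those in Ishikawa-S33Y (adjusted p = 0.0172) and HEC265 (adjusted p = 0.0136). Both were also called with a replicate block (adjusted p = 0.0400 and 0.0469), with the libraries of the line alone (0.00492 and 0.00736) and without the shallow libraries (0.0341 and 0.0388). The share of genes called in either direction was 15.2% for Ishikawa, 29.1% for Ishikawa-S33Y, 7.86% for SNGM and 14.7% for HEC265. The mean over Ishikawa-S33Y, SNGM and HEC265 was -0.02 (95% interval -0.18 to 0.13, adjusted p = 0.850), where 32.3% of genes were called in either direction. The CAV1 responses to SM08502 did not differ detectably between lines: the difference of responses was 0.08 for HEC265 minus Ishikawa-S33Y (95% interval -0.26 to 0.42), -0.05 for Ishikawa-S33Y minus SNGM (-0.39 to 0.29) and 0.03 for HEC265 minus SNGM (-0.31 to 0.37). For CAV2 the response in HEC265 was below that in Ishikawa-S33Y by a log2 difference of -0.66 (SE 0.19, adjusted p = 0.0382), in a contrast where 5.66% of genes were called. That call was lost when any 1 of the 8 libraries concerned was left out (-0.69 to -0.63, adjusted p = 0.0898 to 0.140). The other differences of CAV2 responses were 0.37 for Ishikawa-S33Y minus SNGM (adjusted p = 0.228) and -0.29 for HEC265 minus SNGM (adjusted p = 0.531), with 9.83% and 2.03% of genes called.

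**Figure D2:**
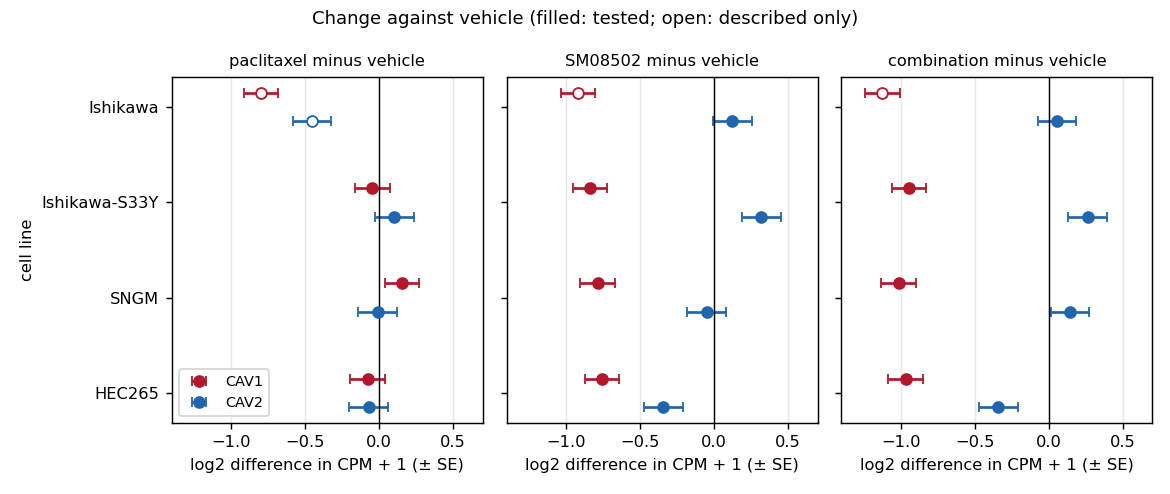
Log2 difference in CPM + 1 against vehicle for CAV1 (red) and CAV2 (blue) in each cell line, with bars of 1 SE, for paclitaxel, SM08502 and their combination. Open points are described only because of how CAV1 was chosen. With SM08502 and with the combination every CAV1 point lies between -0.76 and -1.12, and the CAV2 points lie between -0.34 and 0.32.

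With the combination, CAV1 stood near its level with SM08502 alone or slightly below it. CAV1 with the combination stood at 62.2 and 59.0 CPM in Ishikawa, 65.6 and 81.6 CPM in Ishikawa-S33Y, 38.9 and 39.8 CPM in SNGM, and 356 and 321 CPM in HEC265. The second value in Ishikawa-S33Y rests on 244 reads and the second in SNGM on 64 reads, because those libraries are shallow. All combination libraries were below the SM08502 libraries of their line except replicate 2 in Ishikawa-S33Y. Against vehicle, which also served as control for SM08502, the log2 difference was -0.95 in Ishikawa-S33Y (adjusted p = 1.98e-06), -1.01 in SNGM (adjusted p = 7.18e-06) and -0.97 in HEC265 (adjusted p = 6.27e-06), with 18%, 7.54% and 7.16% of genes called lower. In Ishikawa it was -1.12, described only, where 11.2% of genes were called lower. The step from SM08502 to the combination asks what paclitaxel adds, and uses no library that chose CAV1. It was -0.21 for Ishikawa (95% interval -0.45 to 0.04), -0.11 for Ishikawa-S33Y (-0.35 to 0.13), -0.23 for SNGM (-0.47 to 0.01) and -0.21 for HEC265 (-0.45 to 0.03). None was called (adjusted p = 0.343 to 1), none had an unadjusted p under 0.05, and limma voom called none. The direction in Ishikawa-S33Y turned to 0.05 without replicate 1 of the combination.

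CAV2 with the combination stood at 97.8 and 91.1 CPM in Ishikawa, 96.3 and 106 CPM in Ishikawa-S33Y, 3.004 and 4.36 CPM in SNGM, and 371 and 335 CPM in HEC265. Only HEC265 had both libraries below vehicle, and the second SNGM value rests on 7 reads. Against vehicle the log2 differences were 0.06 for Ishikawa (adjusted p = 0.805), 0.26 for Ishikawa-S33Y (adjusted p = 0.115), 0.14 for SNGM (adjusted p = 0.496) and -0.34 for HEC265 (adjusted p = 0.0732). None of these was called, where 22.8%, 42%, 18.4% and 19.5% of genes were, although the HEC265 difference had an unadjusted p of 0.0167 and was called by limma voom (adjusted p = 0.0111). Against SM08502 alone the CAV2 difference was -0.07 for Ishikawa, -0.06 for Ishikawa-S33Y, 0.19 for SNGM and 0.00061 for HEC265, and none was called. The SNGM value depended on the shallow library: it was 0.40 and called (limma, adjusted p = 0.0361) when only that library of 7 reads represented the combination, its spread assumed to be that of the other groups, and -0.02 without it. Genes called between the combination and SM08502 made up 0%, 0.129%, 0.253% and 0.00588% of all genes.

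The 2 responses were combined in a single value per library, the log2 ratio of CAV1 to CAV2 (CPM + 1), of which only the change within a line is read. Libraries with SM08502, alone or combined, were compared with libraries without it, so each side of 4 libraries pools 2 treatments. In Ishikawa-S33Y the ratio lay between -0.55 and -0.33 with SM08502 and between 0.57 and 0.78 without, a difference of means of -1.11. In SNGM it lay between 2.93 and 3.73 with SM08502 and between 4.01 and 4.65 without, a difference of -1.03. The value of 2.93 came from the shallow combination library, with 7 reads of CAV2. CAV2 in SNGM lay between 2.75 and 4.36 CPM, so adding 1 CPM damps its changes in the ratio there. In HEC265 the ratio lay between -0.06 and 0.16 with SM08502 and between 0.55 and 0.57 without, a difference of -0.52. The sides did not overlap in any of these lines, and a two-sided exact permutation test gave p = 0.0286 in each, the smallest that 4 against 4 libraries allow (adjusted over the 3 lines, 0.0286). That test treats all libraries of a line as exchangeable, although each side holds duplicates of 2 treatments. It reuses the libraries of the tests above, so its p-value is no separate evidence. In Ishikawa the ratio lay between -0.64 and -0.47 with SM08502 and between 0.08 and 0.65 without, a difference of -0.94 given as a description. Within Ishikawa the 2 paclitaxel libraries (0.33 and 0.08) were below the 2 vehicle libraries (0.65 and 0.44). CAV1 thus fell relative to CAV2 with SM08502 in each tested line, and whether the shift in HEC265 is smaller than elsewhere was not tested on the ratio.

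**Figure D3:**
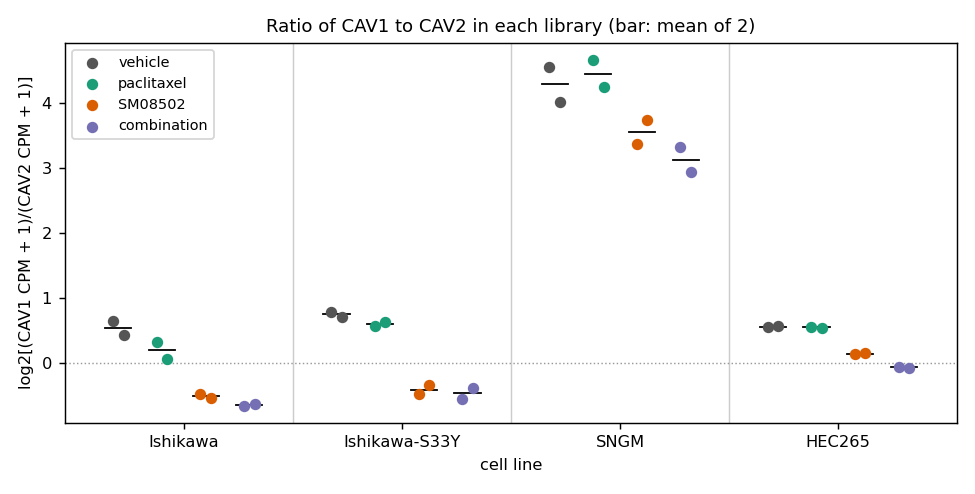
Log2 ratio of CAV1 to CAV2 (CPM + 1) in each of the 32 libraries, by cell line and treatment, with a bar for the mean of 2 replicates. In every line the 4 libraries with SM08502 lie below the 4 libraries without it, with differences of means from -1.11 to -0.52.

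Some of the other coat and accessory genes of caveolae were called with SM08502, in both directions. A list of 12 such genes, all of which passed the filter, held 1 rise and 2 falls in Ishikawa, 2 rises and no fall in Ishikawa-S33Y, and 1 fall each in SNGM and HEC265. Among all genes the share called higher was 6.5% for Ishikawa, 18.5% for Ishikawa-S33Y, 3.8% for SNGM and 9.27% for HEC265, and the share called lower was 8.68%, 10.6%, 4.06% and 5.39% in that order. For a list of 12 genes, the counts of 1 and the 2 rises in Ishikawa-S33Y are near those shares. The list's median log2 difference was -0.36 for Ishikawa (0.0025 for all genes), 0.26 for Ishikawa-S33Y (0.11), -0.13 for SNGM (0) and 0.09 for HEC265 (0.07). CAVIN2 (SDPR in the deposited table), a cavin that binds phosphatidylserine, fell from 8.94 ± 0.70 to 4.01 ± 1.11 CPM in Ishikawa (SD, n = 2; log2 -1.01, adjusted p = 0.0108) and from 12.9 ± 0.34 to 6.25 ± 0.32 CPM in HEC265 (log2 -0.94, adjusted p = 0.0153). In Ishikawa-S33Y its log2 difference was 0.51 and not called (adjusted p = 0.142), and in SNGM it was -0.53 (adjusted p = 0.255). CAVIN1 (PTRF), the cavin without which caveolae do not form, had vehicle levels of 38.3 CPM for Ishikawa, 113 CPM for Ishikawa-S33Y, 54.3 CPM for SNGM and 132 CPM for HEC265. Its log2 differences, in that order, were -0.55, 0.20, -0.41 and 0.16, none called. The Ishikawa libraries with SM08502, which differ in length score, also differed in CAVIN1 (27.6 ± 13.6 CPM, SD, n = 2). CAVIN3 (PRKCDBP), which binds protein kinase C delta, rose from 7.44 ± 0.63 to 11.6 ± 0.11 CPM in Ishikawa-S33Y (adjusted p = 0.00778), and both vehicle libraries of HEC265 were at 0 reads. NOSTRIN, which guides endothelial nitric oxide synthase away from the membrane, rose in Ishikawa (0.70, adjusted p = 0.0105) and Ishikawa-S33Y (1.13, adjusted p = 8.09e-05) and fell in SNGM, from 208 ± 5.25 to 128 ± 3.38 CPM (-0.70, adjusted p = 0.0167). EHD4, a membrane-shaping ATPase, fell in Ishikawa (-0.48, adjusted p = 0.0310), but its log2 difference was -0.20 without replicate 2 of SM08502. That call was lost with no filter (limma, adjusted p = 0.0538) and with Ishikawa libraries alone (0.341). CAV3, the muscle caveolin, stayed at or under 1.05 CPM in every library. CAVIN4 (MURC), EHD1, EHD2, PACSIN2, PACSIN3 and FNBP1L were not called in any line. Other calls depended on the fit too. With a pseudocount of 0.1 CPM, NOSTRIN in SNGM and CAVIN3 in Ishikawa-S33Y were no longer called (limma, adjusted p = 0.0729 and 0.151). With Ishikawa libraries alone, CAVIN2 and NOSTRIN were no longer called in that line (0.124 and 0.146).

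Receptors and signalling proteins that bind caveolin or reside in caveolae were a list of 18 genes, all of which passed the filter. With SM08502, 3 fell in Ishikawa (8.68% of all genes were called lower), 3 in HEC265 (5.39%), 1 in Ishikawa-S33Y (10.6%) and 1 in SNGM (4.06%), and 1 rose in HEC265 (9.27% higher). The counts of 1 are near or below those shares. SCARB1, the receptor for high-density lipoprotein, fell in Ishikawa (log2 -0.93, adjusted p = 1.60e-04), Ishikawa-S33Y (-0.91, adjusted p = 7.27e-05) and HEC265 (-0.60, adjusted p = 0.00545). ITGB1, the integrin beta-1 chain, stood in Ishikawa at 719 ± 25.2 CPM on vehicle and fell to 485 ± 48.0 CPM (SD, n = 2; adjusted p = 0.00782), as did the kinase gene FYN (-0.83, adjusted p = 0.00987). The TGF-beta receptor gene TGFBR2 fell in SNGM (-0.46, adjusted p = 0.0344). In HEC265, NOS3 (endothelial nitric oxide synthase) and PRKCA (protein kinase C alpha) fell by 0.88 and 0.72 on the log2 scale (adjusted p = 0.00909 and 0.0299), and HRAS rose by 0.79 (adjusted p = 0.00453). Of 14 genes of flotillin and clathrin uptake, the other ways into the cell, 3 fell in each of Ishikawa, Ishikawa-S33Y and HEC265, none was called in SNGM, and 2 rose in HEC265, to be read against the same shares of all genes. FLOT2, a flotillin of lipid rafts, fell in Ishikawa (-0.74, adjusted p = 2.88e-04), Ishikawa-S33Y (-0.58, adjusted p = 9.84e-04) and HEC265 (-0.52, adjusted p = 0.00459). DNM1, the gene of dynamin 1, which cuts vesicles from the membrane, fell in the same 3 lines, in Ishikawa-S33Y from 46.0 ± 0.83 to 12.2 ± 0.34 CPM (-1.83, adjusted p = 8.61e-07). FLOT1 fell in Ishikawa and HEC265 (-0.39 and -0.42), and AP2M1, a clathrin adaptor subunit, fell in Ishikawa-S33Y (-0.36) and rose in HEC265 (0.35), where the clathrin light chain gene CLTB also rose (0.57). With paclitaxel in Ishikawa, the contrast that chose CAV1 and is described only, CAVIN3 stood at 3.99 ± 0.42 CPM with a log2 difference of -0.68 (SE 0.16), and CAVIN2 at 5.50 ± 1.67 CPM with -0.64 (SE 0.25). The other coat genes ranged from -0.66 in EHD2 to 0.20 in CAVIN4. With the libraries of a line alone setting the spread, no list gene remained called in Ishikawa (0 of 17, counting also the neighbours on chromosome 7 and the YAP and TEAD targets) and 3 of 9 did in SNGM, against 15 of 15 in Ishikawa-S33Y and 19 of 19 in HEC265. Leaving out each replicate in turn kept fewer of them, 42 of 68 gene tests in Ishikawa, 53 of 60 in Ishikawa-S33Y, 12 of 36 in SNGM and 33 of 76 in HEC265. With the length score as a covariate all 17 calls in Ishikawa were kept.

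The genes around the caveolins on chromosome 7 were examined for changes like that of CAV1. Of 13 neighbours in 7q31, 10 passed the filter, and WNT2, ASZ1 and ANKRD7 did not. With SM08502, 3 rose in Ishikawa-S33Y, 2 in SNGM and 1 in each of Ishikawa and HEC265, and 1 fell, in HEC265. The share of all genes called higher was 18.5% in Ishikawa-S33Y, 3.8% in SNGM, 6.5% in Ishikawa and 9.27% in HEC265, where 5.39% were called lower. The single calls in Ishikawa and HEC265 are thus near the background, and the 3 rises in Ishikawa-S33Y are not far above it. The 2 calls in SNGM and the call in Ishikawa depended on the fit, as given below. TES, the gene of the focal adhesion protein testin upstream of CAV2, rose in Ishikawa (log2 0.27, adjusted p = 0.0349), Ishikawa-S33Y (0.60, adjusted p = 3.02e-05) and SNGM (0.30, adjusted p = 0.0320). MET, the hepatocyte growth factor receptor gene, was singled out as the next protein-coding gene downstream of CAV1, after its values were seen. Its log2 difference was -0.28 in Ishikawa, 0.23 for Ishikawa-S33Y, -0.26 for SNGM and -0.38 for HEC265, none called (adjusted p = 0.109 to 0.368). ST7 rose in Ishikawa-S33Y (0.33), SNGM (0.28) and HEC265 (0.50). In SNGM the calls of TES and ST7 were lost with re-centring (limma, adjusted p = 0.0846 and 0.0922) and with SNGM libraries alone (0.261 and 0.369). The TES call in Ishikawa was lost with Ishikawa libraries alone (0.226), with no intensity trend (0.0568) and with a replicate block (0.0506). MDFIC rose in Ishikawa-S33Y (0.84, limma, adjusted p = 0.00102), a call lost with a pseudocount of 0.1 CPM (adjusted p = 0.232). LSM8, a component of the U6 snRNP, fell in HEC265 (-0.61, adjusted p = 1.54e-04). No neighbour was called lower in Ishikawa-S33Y or SNGM, where CAV1 fell. In HEC265, where CAV1 fell too, LSM8 was the 1 neighbour called lower.

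**Figure D4:**
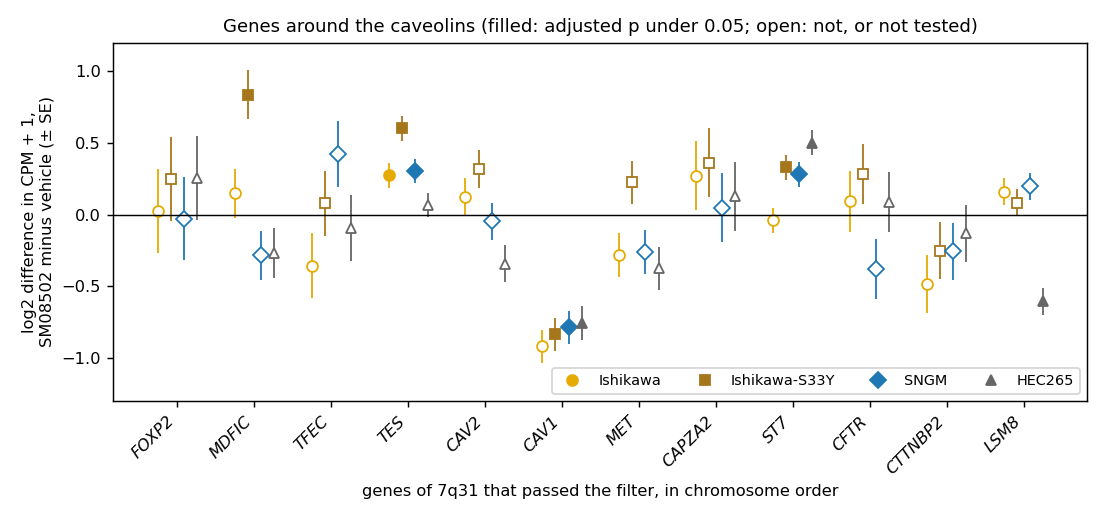
Log2 difference between SM08502 and vehicle in CPM + 1 (with bars of 1 SE) for the 10 neighbours that passed the filter and both caveolins, in chromosome order, with a symbol for each cell line. Filled symbols have an adjusted p under 0.05, and CAV1 in Ishikawa is open because it was not tested. The 4 CAV1 points, from -0.92 to -0.76, lie below those of every neighbour shown.

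The genes most like each caveolin were found by Pearson r over the 32 libraries, among 10422 other genes whose log2(CPM + 1) averaged 3 or more. These coefficients describe libraries that share line, treatment and depth, and carry no test. Over all libraries the genes most like CAV1 included SLC43A3 (r = 0.95), DUSP4 (0.94), SAMD5 (0.94) and F3 (0.94), each highest in HEC265. F3, the gene of tissue factor, stood at 330 ± 6.63 CPM in HEC265 on vehicle, against 20.2 ± 0.75 in Ishikawa, 11.2 ± 0.35 in Ishikawa-S33Y and 3.13 ± 0.54 CPM in SNGM (SD, n = 2). CAV2 came only at number 615 (r = 0.74). Those most like CAV2 included FOXA1 (0.99), NXPE3 (0.99), CMBL (0.99) and SPG20 (0.98), each low in SNGM. FOXA1, the gene of a pioneer transcription factor, had no read in any SNGM library and stood at 63.9 ± 1.50 CPM in HEC265 on vehicle. With the mean of each line subtracted, differences between treatments and between replicates remain. On these values the 5 most like CAV1 were DCBLD2 (0.95), ERAP1 (0.94), C12orf75 (0.94), PRSS23 (0.93) and GLB1 (0.93), and CAV2 was at number 4753 (r = -0.03). DCBLD2, a membrane receptor gene, stood at 1228 ± 4.80 CPM on vehicle and 856 ± 11.4 CPM on SM08502 in HEC265, and at 431 ± 8.08 and 271 ± 2.06 CPM in Ishikawa-S33Y. GLB1, the gene of lysosomal beta-galactosidase, stood at 69.9 ± 0.11 CPM on vehicle and 34.5 ± 1.11 CPM on SM08502 in HEC265. For CAV2 the most like after this subtraction included PHLDA1 (0.69), TTC33 (0.68), RND3 (0.67) and LMO4 (0.67), lower coefficients than those of the 5 genes named for CAV1.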

How the data were processed

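RNA from 32 samples was sequenced after ribosomal RNA depletion, and per the labels cells were plated in duplicate; p-values measure the spread between these duplicates, which may be technical. The authors deposited log10(CPM + 1) for 35238 genes, a unit checked on the values, since CPM sum to 1000000 in each library and 100% of values are whole reads within 0.05. The submitters' processing notes name bcl2fastq, kallisto, STAR and GRCh38; what each did, which gene models were used and whether counting used strand is not given in the sources used here. Splicing tables were not analysed here.

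CPM were taken to log2(CPM + 1), genes above 1 CPM in at least 2 libraries were kept (17011), and 16 group means were fitted with limma 3.58.1 (R 4.3.3, empirical Bayes with an intensity trend, 16 residual degrees of freedom). In each of 27 contrasts two-sided p values were adjusted over all genes tested by the Benjamini-Hochberg method. Differences on this scale understate the change of low genes, CAV2 in SNGM among them. Same-numbered replicates were not treated as pairs. Alternatives were 2 other filters, another pseudocount, re-centring, quantile normalization, no trend, each line alone, a replicate block, voom on recovered reads, a length covariate, each replicate left out and, chosen after seeing the data, both shallow libraries left out. The procedure was tested on simulated data, for SM08502 against vehicle in SNGM only and with the same dispersion for every gene. That simulation does not show how the fit behaves where replicate spread differs between lines. The members and gene lists were chosen with earlier results of these data known. CAV1 and CAV2 were named throughout, with all filtered coat genes, at most 4 called genes per list and line with the largest change with SM08502, and the 5 genes most like each caveolin, of which some are not reported here. List genes carry current names beside the table's symbol where the names differ, and other genes carry the table's symbol. Sequences and coordinates are from RefSeq (GRCh38.p14), in which both caveolins matched by symbol. Depth limits precision mainly in the 2 shallow combination libraries, where 3 reads equal 1.87 CPM in SNGM.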

Additional observations from a re-analysis of the deposited data

Results flagged for a closer look

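The response of CAV2 to SM08502 differed between HEC265 and Ishikawa-S33Y by a log2 difference of -0.66 (SE 0.19, limma, adjusted p = 0.0382), which is why it is listed here: the same contrast gave different effects in 2 lines. CAV2 went from 449 and 445 CPM to 349 and 356 CPM in HEC265, and from 82.0 and 85.8 CPM to 103 and 106 CPM in Ishikawa-S33Y, so that both libraries moved down in the first line and up in the second. The lines received 149 and 85 nM SM08502, and dose cannot be told apart from line. The difference lay between -0.70 and -0.63 in all 11 alternatives and all 8 fits without a replicate. Its call was lost in 5 of those alternatives and in all 8 of those fits.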

How the results depend on the processing

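Each contrast of the caveolins was recomputed under 11 alternatives and with each replicate left out. Of 806 values of tested contrasts, 737 kept their direction and their side of the threshold, 38 changed sign, 15 lost a call and 16 gained one. Of 60 values in the described Ishikawa contrasts, 58 moved by less than the spread between replicates. The lower CAV1 level with SM08502 kept its direction everywhere, and the single call it lost was in SNGM with the libraries of that line alone (-0.79, adjusted p = 0.0760). CAV1 in SNGM minus Ishikawa on SM08502 lost its call with the length score as covariate (-0.43).

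The difference of CAV2 responses between HEC265 and Ishikawa-S33Y lost its call with no filter (-0.66, adjusted p = 0.0560), a pseudocount of 0.1 (-0.66, 0.0859), re-centring (-0.70, 0.0904), quantile normalization (-0.67, 0.0747), no intensity trend (-0.66, 0.0513) and without each replicate (-0.69 to -0.63). The cause was not tested. CAV2 with SM08502 became called in Ishikawa-S33Y and HEC265 with the line's libraries alone (0.32 and -0.34), with voom (0.32 and -0.34) and without both shallow libraries, an alternative chosen after seeing the data (0.32 and -0.34), and in HEC265 with the length score (-0.38). With the combination it became called with the line's libraries alone in Ishikawa-S33Y and HEC265 (0.26 and -0.34), and in HEC265 with voom (-0.34), the length score (-0.38) and without the shallow libraries (-0.34).

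Same-numbered replicates deviated together in some pairs of treatments, with r over 0.1 in 3 of 6 in Ishikawa and 2 of 6 in SNGM and in none of 6 in the other lines (r from -0.33 to 0.70 in Ishikawa, -0.05 to 0.03 in Ishikawa-S33Y, -0.45 to 0.43 in SNGM and -0.06 to 0.08 in HEC265). The reported fit did not take them as pairs, so a shared replicate effect in Ishikawa and SNGM is left in its spread. With a replicate block CAV2 was called with SM08502 in Ishikawa-S33Y (0.32, adjusted p = 0.0400) and HEC265 (-0.34, 0.0469), and with the combination in HEC265 (-0.34, 0.0384). The block changed no other call of a caveolin, and kept 16 of 17 list calls with SM08502 in Ishikawa and 6 of 9 in SNGM, losing TES in both (0.27, 0.0506 and 0.30, 0.0510) and in SNGM also ST7 (0.28, 0.0733) and FOXF2 (0.0514).

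Values near 0 changed sign. Re-centring turned CAV2 between combination and SM08502 in HEC265 (-0.011), both means over lines with paclitaxel (-0.014 in CAV1, -0.017 in CAV2), CAV2 in Ishikawa-S33Y minus Ishikawa on SM08502 (-0.013) and the CAV1 response in HEC265 minus SNGM (-0.085). Quantile normalization turned CAV2 with paclitaxel in SNGM (0.011), the CAV1 mean with paclitaxel (-0.0102) and the CAV1 response in HEC265 minus SNGM (-0.0504). Voom turned CAV2 with the combination in SNGM (-0.0088), and the length score turned CAV2 between combination and SM08502 in HEC265 (-0.0014) and the CAV2 mean with paclitaxel (-0.0029). Without the shallow libraries, CAV2 in SNGM was -0.066 with the combination and -0.019 against SM08502.

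Leaving out each replicate moved these values through 0: the means with paclitaxel (-0.026 to 0.046 in CAV1, -0.047 to 0.061 in CAV2), CAV1 responses in HEC265 minus Ishikawa-S33Y (-0.0094 to 0.17), HEC265 minus SNGM (-0.14 to 0.20) and Ishikawa-S33Y minus SNGM (-0.22 to 0.12), the steps from SM08502 to the combination in Ishikawa-S33Y (-0.26 to 0.046 in CAV1, -0.12 to 0.011 in CAV2), SNGM (-0.019 to 0.40 in CAV2) and HEC265 (-0.073 to 0.075 in CAV2), and in SNGM CAV2 with paclitaxel (-0.17 to 0.15), SM08502 (-0.21 to 0.11) and the combination (-0.066 to 0.35). The CAV2 mean with SM08502 ran from -0.078 to 0.030. The described values in Ishikawa ran from -0.62 to -0.29 for CAV2 with paclitaxel and from -1.04 to -0.85 for the ratio. Of the 5 genes most like CAV2 within lines, 3 remained after re-centring.

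Over the 11 alternatives the number of all genes called moved by more than 1.5 times in many contrasts. With SM08502 it was 48 to 4143 in Ishikawa (2582 in the reported fit), 125 to 2990 in SNGM (1337) and 2117 to 7026 in HEC265 (2494). With the combination it was 362 to 5396 in Ishikawa (3886), 571 to 4590 in SNGM (3128) and 2942 to 8034 in HEC265 (3319). Between combination and SM08502 it reached 39 in Ishikawa (0), 351 in Ishikawa-S33Y (22) and 265 in SNGM (43). With paclitaxel it reached 119 in Ishikawa (2), 31 in Ishikawa-S33Y (0) and 22 in SNGM (3). Between Ishikawa-S33Y and Ishikawa on SM08502 it fell to 5730 (8961), and differences of responses reached 4170 for HEC265 minus Ishikawa-S33Y (962), 3330 for Ishikawa-S33Y minus SNGM (1673) and 1081 for HEC265 minus SNGM (345).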

Other observations

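YAP and TEAD target genes were followed because YAP, a transcriptional coactivator, responds to membrane and cytoskeletal tension, as caveolae do. All 15 passed the filter. With SM08502, 1 rose and 6 fell in Ishikawa, and 3 rose and 3 fell in Ishikawa-S33Y. In SNGM 2 rose and 3 fell, and in HEC265 7 fell. The list's median log2 difference was -0.37 for Ishikawa (0.0025 for all genes) and 0.14 for Ishikawa-S33Y (0.11). It was 0.08 for SNGM (0) and -0.43 for HEC265 (0.07). Of all genes, the share called higher was 6.5% for Ishikawa, 18.5% for Ishikawa-S33Y, 3.8% for SNGM and 9.27% for HEC265, and the share called lower was 8.68%, 10.6%, 4.06% and 5.39% in that order. The 3 rises in Ishikawa-S33Y are close to that share. AXL, a receptor tyrosine kinase gene, fell in all 4 lines, with log2 differences of -0.999 for Ishikawa, -1.54 for Ishikawa-S33Y, -0.82 for SNGM and -1.11 for HEC265. F3 fell in Ishikawa (-0.80), Ishikawa-S33Y (-1.38) and HEC265, from 330 ± 6.63 to 89.4 ± 1.72 CPM (SD, n = 2; limma, adjusted p = 3.62e-09). The list did not move one way: ANKRD1 rose in Ishikawa (1.09), Ishikawa-S33Y (1.30) and SNGM (0.71). CCN2 (CTGF in the deposited table), a matricellular protein gene, rose in Ishikawa-S33Y (1.57) and SNGM (1.28) and fell in HEC265 (-0.53). With Ishikawa libraries alone, AXL, F3 and ANKRD1 lost their calls there (limma, adjusted p = 0.147, 0.0780 and 0.0674). ANKRD1 lost its call in SNGM with SNGM libraries alone (0.154). The counts given above of calls kept without each replicate in turn include these genes. Paclitaxel raised ANKRD1 in SNGM (0.94, limma, adjusted p = 0.0282), and CCN2 was higher with the combination than with SM08502 there (0.80, adjusted p = 0.0341). Both of these calls were lost with SNGM libraries alone (adjusted p = 1 and 0.690) and with re-centring (0.131 and 0.0537). The ANKRD1 call was also lost with the replicate block (0.0666), with quantile normalization (0.142) and without each of the 4 libraries in turn (0.0906 to 0.929). That of CCN2 was also lost with voom (0.0830), without the shallow libraries (0.259) and in 3 of the 4 fits without a library (0.124 to 0.414).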
